A study of Mus musculus with 6 samples.

Results

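The genes described here are 10 regulators and markers of chondrocyte hypertrophy and bone formation: Ihh, Pthlh, Pth1r, Runx2, Sp7, Dlx5, Runx3, Mef2c, Msx2 and Col10a1. They were picked by gene symbol, and all 10 were found among the 48440 genes of the deposited count table. RNA was sequenced from samples of BMSCs-engineered cartilage (BEC) harvested together with the entangled murine tissue, and reads were mapped to the mouse genome. The study describes the profiles as those of the surrounding murine tissues. BEC had been grown from rabbit bone marrow cells on PLGA scaffolds. The hosts were BALB/c nude mice, a strain that lacks a thymus and so most T cells. They were male and 6 to 8 weeks old when obtained, and the tissues were taken 12 weeks after implantation. In the 0%-Axitinib group (3 samples) BEC was wrapped in a PCL/collagen nanofibrous membrane without drug, and in the 3%-Axitinib group (3 samples) the membrane carried axitinib, an inhibitor of VEGF receptors, at 3% of the mass of PCL and collagen. The labels call the first group untreated, and it was read as the 0%-Axitinib group from the protocol and the design text. The study asks whether the drug stops endochondral ossification of BEC. By its own staining of sections at 12 weeks, ossification was recorded in all 0%-Axitinib samples and in none of the 3%-Axitinib samples. RNA levels are described here, not ossification itself.

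In endochondral ossification, chondrocytes stop dividing, enlarge, make type X collagen and are then replaced by bone as vessels invade. Indian hedgehog (Ihh), made by chondrocytes that are about to enlarge, induces parathyroid hormone-related protein (Pthlh), which acts through its receptor Pth1r to delay hypertrophy. Runx2, with Runx3 and Mef2c, drives hypertrophy, and Runx2 followed by Sp7 commits cells to the osteoblast fate.

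Reads counted on genes numbered 17761968, 16716411 and 18005908 in 0%-Axitinib replicates 1, 2 and 3, and 9225518, 11686084 and 18403795 in 3%-Axitinib replicates 1, 2 and 3. Levels are given as CPM, which are counts relative to the TMM-scaled library total. A count of 3, taken as the limit of detection and covering counting error only, corresponded to between 0.156 and 0.329 CPM. Unmapped reads made up 5.47%, 3.84% and 14.9% of the 0%-Axitinib libraries and 48.4%, 29.2% and 16.8% of the 3%-Axitinib libraries. Every 3%-Axitinib library thus had a larger unmapped share than any 0%-Axitinib library, and the part of this difference in the results was not tested. The counts do not show whether a read came from mouse or rabbit RNA.

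Some libraries stood apart in markers of other cell types. The summed level of 10 skeletal muscle genes was 124, 3.95 and 9.64 CPM in the 0%-Axitinib samples against 12160, 16.4 and 6890 CPM in the 3%-Axitinib samples. Muscle RNA was thus abundant in 3%-Axitinib replicates 1 and 3 and near the control level in replicate 2. The most abundant of these genes was Acta1, and Myh4 and Ckm had no read in 0%-Axitinib replicate 3 and 3%-Axitinib replicate 2. The summed level of 9 keratinocyte and hair follicle genes was 796 CPM in 0%-Axitinib replicate 2, where Krt1 was the most abundant, and at most 8.66 CPM in every other sample. Fibroblast genes, the markers closest to the labelled subcutaneous tissue, were detected in all samples, with Col1a2 the most abundant and a summed level of 6 genes between 7033 and 39970 CPM.

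Of the 10 regulators, 9 passed the filter on low counts and entered the quasi-likelihood test of edgeR. The study's criterion, a fold change of at least 1.5 with an unadjusted p of at most 0.05, was met by 2 of them, Ihh and Pth1r, both higher in the 3%-Axitinib group, and by none in the other direction. Among all 15257 tested genes, 21.2% met the criterion, 9.54% as higher and 11.7% as lower. With Benjamini-Hochberg adjustment over all tested genes, 0 of the 9 regulators reached an adjusted p of 0.05 in edgeR, against 0.00655% (1 gene) of all tested genes. By adjusted p, DESeq2 gave 2, again Ihh and Pth1r, among 1960 genes in all, and 4 regulators met the criterion with it, Sp7 and Dlx5 being added. The groups did not overlap for 1 regulator, Ihh, while 31.3% of all tested genes did not overlap in either direction, 14.7% as higher and 16.6% as lower. The median log2 fold change was 1.66 over the 9 tested regulators and -0.03 over all tested genes. Leaving out 3%-Axitinib replicate 2 brought the regulators' median to 0.82, and leaving out 0%-Axitinib replicate 3 brought it to 1.11. Between samples, 7 of the 9 were highest in 3%-Axitinib replicate 2, whose summed level of the regulators was 1025 CPM against 118 to 307 CPM in the other samples. The labels do not name the mice, and each mouse carried a pair of constructs of one group, so the p-values measure the spread between these samples. In bulk tissue, more cells of a type and more RNA per cell cannot be told apart.

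**Figure D1:**
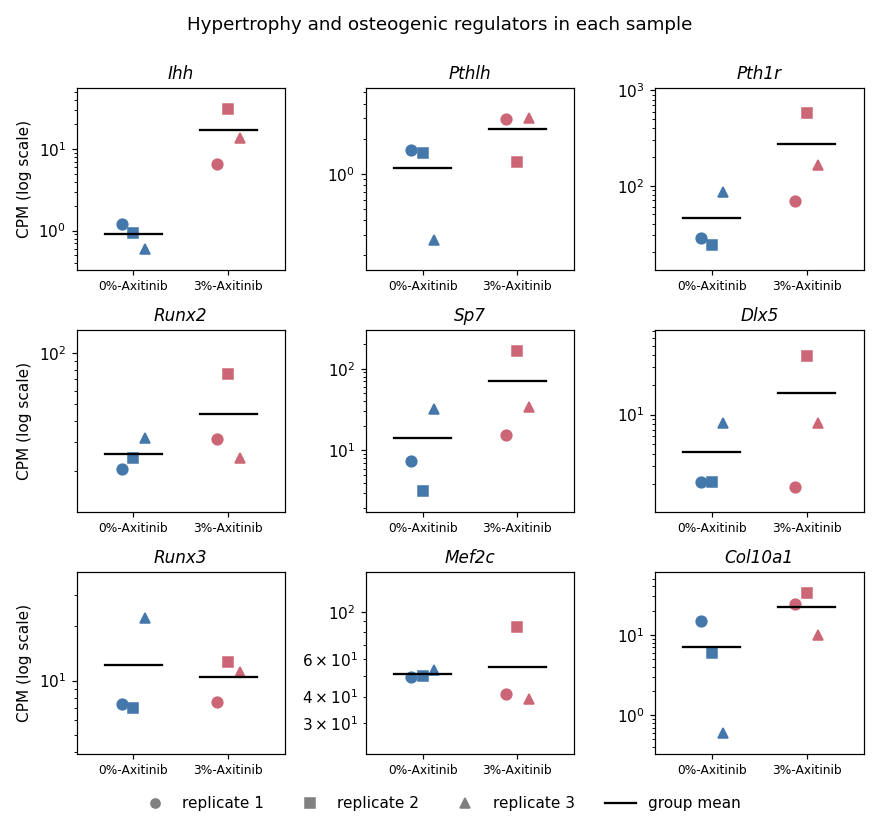
Level of each tested regulator in every sample, in CPM on a log axis, with the group as position and colour, the replicate as marker shape and the group mean as a line. The groups are separate for Ihh and overlap for the other 8 genes, and 3%-Axitinib replicate 2 (squares) is the highest sample for 7 of the 9.

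Ihh encodes the hedgehog ligand of the growth plate (chr1:74945315-74951672, GRCm38, minus strand). It was present at 1.20, 0.930 and 0.596 CPM in the 0%-Axitinib samples and at 6.58, 30.8 and 13.5 CPM in the 3%-Axitinib samples, from 23, 16 and 11 reads against 60, 339 and 234 reads. All 3 treated samples lay above all 3 controls, and the treated samples differed among themselves, with replicate 2 at 4.68 times the level of replicate 1. Mean levels were 0.908 ± 0.301 CPM for the controls and 17.0 ± 12.5 CPM for the treated samples (SD, n = 3 each). This gave a log2 fold change of 4.21 (SE 0.66, 95% interval 2.65 to 5.77), a fold of 18.5, with an adjusted p of 0.0965. It still met the criterion, at 3.46, when 3%-Axitinib replicate 2 was left out. Without 0%-Axitinib replicate 3 it reached an adjusted p of 0.0419.

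Pthlh, the ligand that Ihh induces in the growth plate (chr6:147252101-147264183, minus strand), was low throughout. Its level was 1.61, 1.51 and 0.271 CPM in the 0%-Axitinib samples against 2.96, 1.27 and 3.00 CPM in the 3%-Axitinib samples. The groups overlapped, since treated replicate 2 lay below 0%-Axitinib replicates 1 and 2, and the lowest value rested on 5 reads. The difference on the log2 scale was 1.09 (SE 0.70, 95% interval -0.57 to 2.75) with an adjusted p of 0.375 and did not meet the criterion. This gene was the only regulator with its highest value in 3%-Axitinib replicate 3.

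Pth1r, the receptor shared by parathyroid hormone and the Pthlh product and also carried by osteoblasts (chr9:110722085-110747145, minus strand), measured 28.0, 23.6 and 85.8 CPM in the 0%-Axitinib samples against 69.7, 583 and 164 CPM in the 3%-Axitinib samples. Treated replicate 1 lay below 0%-Axitinib replicate 3, so the groups overlapped, and treated replicate 2 was 8.36 times as high as treated replicate 1. Its log2 fold change of 2.57 (SE 0.87, 95% interval 0.51 to 4.64), a fold of 5.95, met the criterion, and the adjusted p was 0.151. The criterion was no longer met without 0%-Axitinib replicate 1 (2.31), without 0%-Axitinib replicate 2 (2.26) or without 3%-Axitinib replicate 2 (1.37). On the opposite strand, Myl3, a myosin light chain gene of muscle, shares 95 exon bases with Pth1r and was highest in 3%-Axitinib replicate 1, at 8.22 CPM. Whether the counting used the strand is not given in the sources used here, so reads in the shared bases cannot be told apart.

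Other genes of the hedgehog pathway were described beside their ligand. Of 11 such genes 10 were tested, 5 met the criterion as higher and 0 as lower, and the median log2 fold change was 0.91. Gli1, a transcription factor and target of the pathway, was at 12.2, 6.28 and 1.95 CPM in the 0%-Axitinib samples and at 21.3, 79.7 and 48.3 CPM in the 3%-Axitinib samples. All treated samples were above all controls for Gli1, with a log2 fold change of 2.87 (SE 0.74) and an adjusted p of 0.106. With 1 sample left out at a time, the log2 fold change of Gli1 ranged from 2.34 to 3.59. The co-receptor Gas1, the most abundant of the list (log2 fold change 0.84), the signal transducer Smo (0.98) and the factor Gli2 (1.48) were also higher, and their groups did not overlap either. Ptch1, the main hedgehog receptor and itself a target, was at 0.99 and did not meet the criterion (adjusted p = 0.277). Without 3%-Axitinib replicate 2 the count was 3, and Gli2 (1.13) was among those that no longer met the criterion, while the list's median was 0.61. Gli2 also missed it without 3%-Axitinib replicate 1 (1.61), and the count was between 3 and 5 over the fits that each left out 1 sample.

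Downstream of the receptor, 10 of 11 genes of PTH1R signalling were tested, of which 1 was higher and 2 were lower by the criterion, the median being 0.06 on the log2 scale (-0.05 to 0.13 with 1 sample left out at a time). Hdac5, a class IIa histone deacetylase that restrains Mef2 factors, was the higher one (0.78), although not without 0%-Axitinib replicate 3 (0.58, below a fold of 1.5), 3%-Axitinib replicate 2 (0.77) or 3%-Axitinib replicate 3 (0.66). The lower ones were Creb1, a cAMP-responsive transcription factor (-1.04), and Prkar1a, the regulatory subunit of protein kinase A and the most abundant of the list (-0.67). Prkar1a missed the criterion without 0%-Axitinib replicate 3 (-0.58, below a fold of 1.5).

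Runx2, the runt-domain factor needed for osteoblast formation (chr17:44495987-44814797, minus strand), was at 20.8, 24.1 and 31.7 CPM in the 0%-Axitinib samples and at 31.1, 75.9 and 24.1 CPM in the 3%-Axitinib samples. Only treated replicate 2 lay above all controls, and the other treated samples fell within the control range. Runx2 thus had a log2 fold change of 0.77 (SE 0.44, 95% interval -0.27 to 1.82) with an adjusted p of 0.323. It was 0.12 without 3%-Axitinib replicate 2 and met the criterion without 3%-Axitinib replicate 3 (1.07). An antisense gene, Runx2os1, shares 519 of its exon bases and was at most at 1.27 CPM.

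Sp7, the zinc-finger factor that acts after Runx2 in osteoblasts (chr15:102356606-102367182, minus strand), varied most between samples among the transcription factors, by 51.2 times from the lowest to the highest. It measured 7.44, 3.20 and 32.0 CPM in the 0%-Axitinib samples against 15.7, 164 and 33.7 CPM in the 3%-Axitinib samples. Control replicate 3 and treated replicate 3 were nearly level, treated replicate 1 lay between the controls, and treated replicate 2 stood apart. The log2 fold change of 2.32 (SE 1.10, 95% interval -0.28 to 4.92) did not meet the criterion in edgeR (adjusted p = 0.251), but did so in the DESeq2 Wald test (2.32) and in edgeR with no filter on low counts (2.31). It was 0.82 without 3%-Axitinib replicate 2, and it met the criterion without 0%-Axitinib replicate 3 (3.73) or without 3%-Axitinib replicate 1 (2.81).

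Dlx5, a homeobox factor expressed in osteoblasts and maturing chondrocytes (chr6:6877805-6882085, minus strand), measured 2.08, 2.09 and 8.29 CPM in the 0%-Axitinib samples against 1.86, 39.6 and 8.31 CPM in the 3%-Axitinib samples. Its lowest and its highest sample were both treated, replicate 2 being 21.2 times as high as replicate 1. For Dlx5 the log2 fold change was 2.00 (SE 1.08, 95% interval -0.56 to 4.56), with an adjusted p of 0.301, and met the criterion in the DESeq2 Wald test (2.00) but not in edgeR with all 6 samples. Without 3%-Axitinib replicate 2 it was 0.33, while without 0%-Axitinib replicate 3 (2.98) or 3%-Axitinib replicate 1 (2.54) the criterion was met. Dlx6, which lies 9236 bases from Dlx5, was the gene with the most similar pattern to Dlx5 among 14338 tested genes. The measure was the root mean square difference of centred log2 CPM over the 6 samples, and it was 0.280. Dlx6 had only 2 reads in each of 0%-Axitinib replicates 1 and 2 and 3%-Axitinib replicate 1, below the limit of detection. The likeness in those samples is therefore uncertain. Msx2, another homeobox factor of skeletal precursors (chr13:53466884-53473074, minus strand), had 0 reads in all 6 samples and was not tested, which allows a level of up to 0.156 to 0.329 CPM per sample.

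Runx3, a relative of Runx2 that acts in chondrocytes and also in cytotoxic T cells (chr4:135120652-135177990, plus strand), had 7.39, 7.04 and 22.2 CPM in the 0%-Axitinib samples against 7.57, 12.6 and 11.1 CPM in the 3%-Axitinib samples. The highest sample was control replicate 3, and the remaining 5 lay between 7.04 and 12.6 CPM. Its log2 fold change was -0.22 (SE 0.51, 95% interval -1.42 to 0.97, adjusted p = 0.813), and it turned to 0.53 without 0%-Axitinib replicate 3. The same library was the highest in 12 T and NK cell genes, whose summed level was 24.5, 51.4 and 358 CPM in the 0%-Axitinib samples against 17.6, 10.3 and 20.3 CPM in the 3%-Axitinib samples. Of the 8 tested genes of that list 7 were lower by the criterion, and Nkg7 was the most abundant. The count was 5 of 8 without 0%-Axitinib replicate 3, 5 of 12 without 3%-Axitinib replicate 3 and 11 of 12 without 0%-Axitinib replicate 1. Cd8a and Cd8b1 had no read in any 3%-Axitinib sample. In the 0%-Axitinib samples Cd8a had 2, 51 and 474 reads and Cd8b1 had 0, 29 and 200, so most of these reads came from replicate 3. The part of these cells in the Runx3 values was not tested.

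Mef2c, a MADS-box factor of hypertrophic chondrocytes that muscle, endothelial and B cells also express (chr13:83504034-83667080, plus strand), was at 49.6, 49.8 and 53.4 CPM in the 0%-Axitinib samples and at 41.2, 84.9 and 38.8 CPM in the 3%-Axitinib samples. The controls were close to each other, and the treated samples lay on both sides of them. The log2 fold change was 0.11 (SE 0.32, 95% interval -0.65 to 0.87, adjusted p = 0.856), turning to -0.35 without 3%-Axitinib replicate 2 and to -0.022 with scaling to total counts. Muscle genes were abundant in treated replicates 1 and 3, where Mef2c was lowest. The summed level of 10 endothelial genes, led by Pecam1, was 914, 613 and 947 CPM in the 0%-Axitinib samples against 262, 287 and 396 CPM in the 3%-Axitinib samples, and 9 of the 10 were lower by the criterion (6 without 3%-Axitinib replicate 2). For 7 B and plasma cell genes, led by Jchain, the sums were 27.3, 110 and 474 CPM against 2.52, 3.54 and 1.91 CPM, and all 5 tested genes were lower (3 of 6 without 3%-Axitinib replicate 3, and 3 of 5 with the replicate number as a block). The part of these cell types in the Mef2c values was not tested.

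Among 12 partners and modulators of Runx2, all tested, 1 was higher and 2 were lower by the criterion, and the median log2 fold change was 0.22 (-0.12 without 3%-Axitinib replicate 2, and up to 0.48 without 3%-Axitinib replicate 3). Twist1, a basic helix-loop-helix factor that inhibits Runx2, was higher (1.33, SE 0.36). Cbfb, the subunit that strengthens DNA binding by the Runx factors without binding DNA itself and the most abundant of the list, was lower (-0.70), a call kept among the 6 fits that each left out 1 sample only without 3%-Axitinib replicate 2 (range -0.98 to -0.46). Over the fits that each left out 1 sample, the number of lower genes in this list was between 0 and 2, being 0 without 3%-Axitinib replicate 1 or 3. The number of higher genes was 4 without 0%-Axitinib replicate 1 and 1 in the other 5 fits. Of 19 family relatives of the regulators 12 were tested, 0 were higher and 1, the zinc-finger factor Sp3, was lower (-0.82). Sp3 missed the criterion without 0%-Axitinib replicate 1 (-0.82), 0%-Axitinib replicate 3 (-0.77) or 3%-Axitinib replicate 3 (-0.55, below a fold of 1.5). Among the relatives 3 were higher when 0%-Axitinib replicate 1 was left out, 2 in the fit lacking 0%-Axitinib replicate 3 and 1 in that lacking 3%-Axitinib replicate 1. The number of lower relatives ranged from 0 to 2, the latter without 0%-Axitinib replicate 2. The median of the relatives was 0.01 (-0.09 to 0.39 with 1 sample left out at a time), and the most abundant was Mef2d.

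Promoter sequences were searched for the letters that Runx factors are known to bind. Windows from 250 bases before to 50 bases after gene starts were taken from RefSeq (GRCm38.p6), in which 8 of the 10 regulators matched with 13 windows, and Sp7 and Dlx5 are named only. The RUNX core ACCACA, searched on both strands, occurred in 2 of the 13 windows, those of Runx2 (3 matches) and Runx3 (2 matches), and in 16.8% of all 32851 windows. A pair of matches 2 bases apart on one strand was present in 7 windows (0.0213% of all), among them 1 window each of Runx1, Runx2 and Runx3. The other window of Runx3 (chr4:135152295-135152594) and that of Runx1 (chr16:92697280-92697579) held no match. The stretches of 30 bases are shown because 1 window of each of the 3 family members has this arrangement, with the matches in capitals. They lie at chr17:44814583-44814612 (minus strand) for Runx2, chr4:135120503-135120532 (plus strand) for Runx3 and chr16:92826025-92826054 (minus strand) for Runx1.
Runx2: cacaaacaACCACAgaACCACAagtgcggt
Runx3: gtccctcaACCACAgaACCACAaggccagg
Runx1: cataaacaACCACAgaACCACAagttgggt
A match describes letters in the window and was not tested as a binding site.

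Col10a1, which encodes type X collagen and marks hypertrophic chondrocytes (chr10:34389981-34397085, plus strand), measured 14.7, 5.87 and 0.596 CPM in the 0%-Axitinib samples against 24.1, 33.3 and 9.99 CPM in the 3%-Axitinib samples. The groups overlapped through control replicate 1, which lay above treated replicate 3, and control replicate 3 was the lowest sample by far. Mean levels were 7.07 ± 7.14 CPM for the controls and 22.5 ± 11.7 CPM for the treated samples (SD, n = 3 each). The difference, 1.66 on the log2 scale (SE 0.96, 95% interval -0.61 to 3.94), did not meet the criterion (adjusted p = 0.328). It did so without 0%-Axitinib replicate 1 (2.79) and with the replicate number as a block (2.33). An overlap of 18 exon bases with Nt5dc1 on the opposite strand is annotated.

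Of 11 further products of hypertrophic chondrocytes 8 were tested, 5 were higher by the criterion, 0 were lower, and the median log2 fold change was 1.26 (2.40 over 9 tested genes without 0%-Axitinib replicate 3). Panx3, a channel protein of hypertrophic chondrocytes and osteoblasts, was at 0.573, 0.989 and 2.71 CPM in the 0%-Axitinib samples and at 9.87, 97.1 and 23.9 CPM in the 3%-Axitinib samples. Ibsp, the bone sialoprotein gene and the most abundant of the list, was at 235, 181 and 329 CPM against 1044, 10510 and 1802 CPM. Alpl, the alkaline phosphatase of mineralising cells, was at 19.8, 23.3 and 68.1 CPM against 118, 1420 and 323 CPM. In each of the 3 genes every treated sample exceeded every control and replicate 2 was far above the other treated samples. Their log2 fold changes were 4.93 for Panx3, 4.16 for Ibsp and 4.06 for Alpl, with adjusted p-values of 0.0965, 0.0973 and 0.102. Without 3%-Axitinib replicate 2 the log2 fold changes were 3.58, 2.53 and 2.59, and all 3 still met the criterion. Vegfa, the angiogenic growth factor, was also higher (1.10, adjusted p = 0.0979). Spp1, encoding osteopontin, was the fifth gene (1.31) and missed the criterion without any one of the 0%-Axitinib samples (1.23, 1.36 and 1.35 for replicates 1, 2 and 3) and without 3%-Axitinib replicate 2 (0.47).

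Osteoblast and osteocyte products numbered 10, all tested, with 5 higher and 0 lower by the criterion and a median log2 fold change of 1.54 (0.49 without 3%-Axitinib replicate 2). Mepe, a matrix protein of osteocytes, was at 21.3, 17.5 and 55.1 CPM in the 0%-Axitinib samples and at 124, 977 and 306 CPM in the 3%-Axitinib samples. Sost, the osteocyte inhibitor of Wnt signalling, was at 5.10, 5.41 and 11.2 CPM against 27.1, 141 and 83.7 CPM. The groups were separate for both genes, with log2 fold changes of 3.91 for Mepe (2.80 without 3%-Axitinib replicate 2) and 3.53 for Sost (2.95 without it). Ifitm5 (1.63), Col1a1, the most abundant of the list (1.79), and Omd (1.75) were the other 3. These 3 missed the criterion without 0%-Axitinib replicate 2 (log2 fold changes of up to 1.67) and without 3%-Axitinib replicate 2 (1.12, 0.83 and 0.41), which left a count of 2 in either case. Ifitm5 and Omd also missed it without 0%-Axitinib replicate 1 (1.38 and 1.96), Col1a1 and Omd without 0%-Axitinib replicate 3 (1.58 and 1.62), and Col1a1 without 3%-Axitinib replicate 3 (2.04). Bglap and Bglap2, near-identical copies whose counts are uncertain for that reason, had log2 fold changes of -1.27 and -0.91 and did not meet the criterion. Bglap was at 5.31, 1.22 and 110 CPM in the 0%-Axitinib samples against 0.548, 26.35 and 21.48 CPM in the 3%-Axitinib samples. For Bglap2 the levels were 5.26, 2.44 and 58.0 CPM against 0.548, 17.7 and 16.6 CPM. The negative sign of both thus rests on 0%-Axitinib replicate 3.

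Of 13 chondrocyte genes 10 were tested, 5 were higher by the criterion and 0 were lower, and the list's median was 1.02 on the log2 scale (2.21 over 9 tested genes without 0%-Axitinib replicate 3). They were the proteoglycan gene Acan (3.92, SE 0.83), the link protein gene Hapln1 (3.34, SE 0.84), the collagen genes Col9a1 (3.27, SE 1.04) and Col2a1 (2.53, SE 0.81) and the chondrogenic factor Sox9 (1.31, SE 0.43). Comp, the most abundant of the list, was at 0.69 and did not meet it (adjusted p = 0.555). Without 3%-Axitinib replicate 2 the count was 3, Col2a1 (1.70) and Sox9 (0.87) being lost, and Hapln1 was at 1.98. Sox9 also missed the criterion without 0%-Axitinib replicate 2 (1.15) and Col9a1 without 3%-Axitinib replicate 3 (2.84). Acan ranged from 3.20 to 4.74 with 1 sample left out at a time. The summed level of the 13 genes was 364, 215 and 184 CPM in the 0%-Axitinib samples against 326, 1242 and 483 CPM in the 3%-Axitinib samples, so that replicate 2 was highest here too.

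**Figure D2:**
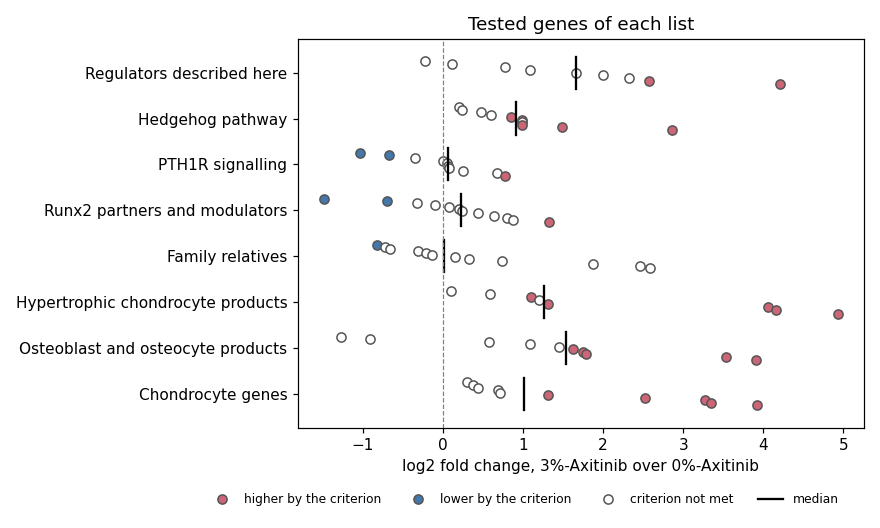
Log2 fold change of each tested gene, 3%-Axitinib over 0%-Axitinib, for the regulators and 7 lists of related genes. Each circle is a gene, red where higher and blue where lower by the study's criterion and open where it was not met, the black line is the median of the list, and the medians run from 0.01 for the family relatives to 1.66 for the regulators, whose median was 0.82 without 3%-Axitinib replicate 2.

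Other cell types of the tissue were compared by the same criterion. Of 10 muscle genes 8 were higher (6 to 10 with 1 sample left out at a time) and 0 lower. The treated sample with little muscle RNA, replicate 2, was the one in which 7 regulators were highest. Macrophage genes (8 genes, led by Lyz2) gave 0 calls (1 lower without 0%-Axitinib replicate 3), with sums of 10900, 11400 and 8094 CPM against 7889, 10050 and 16120 CPM. Osteoclast genes (7 genes, led by Ctsk) also gave 0 calls, with sums of 5818, 7133 and 6963 CPM against 3911, 8686 and 5921 CPM. Without Ctsk the sums were 2007, 2421 and 4070 CPM against 380.5, 4104 and 1567 CPM. Log2 fold changes were below 0 for 6 of the 7, and for 7905 of all 15257 tested genes. Of the osteoclast genes 2 were lower in the DESeq2 Wald test, with scaling to total counts and with no filter on low counts. With the replicate number as a block, without 0%-Axitinib replicate 3 or without 3%-Axitinib replicate 2, 1 was lower. Fibroblast genes gave 0 calls of 6 (1 higher in the DESeq2 Wald test and without 0%-Axitinib replicate 1). Their sums were 19210, 9854 and 7033 CPM against 15970, 39970 and 16060 CPM, highest in treated replicate 2. That sum was mainly collagen, with Col1a2 at 23450 CPM and Col3a1 at 13080 CPM, and Lum was also highest there (970 CPM). Dcn (2064 CPM) and Dpt (252 CPM) were instead lowest there among the treated samples, and Pdgfra (158 CPM) lay between the others. Adipocyte genes, led by Fabp4, were lower for 3 of 6 (6 without 3%-Axitinib replicate 1), with sums of 624, 626 and 803 CPM against 304, 297 and 273 CPM. Of 8 pericyte and smooth muscle genes 1 was higher and 2, Rgs5 (-2.22) and Kcnj8 (-1.22), were lower. The higher gene was Des, the most abundant of the list, which skeletal muscle also expresses, at 29.2, 11.7 and 13.3 CPM in the controls against 1316, 21.6 and 606 CPM. The sums were 861, 477 and 599 CPM against 1859, 750 and 1073 CPM with Des, and 832, 465 and 585 CPM against 544, 728 and 468 CPM without it, where the groups overlapped. Of 9 keratinocyte genes 2 were tested and 1, Krt10, was lower, with 3.54, 221 and 3.41 CPM in the controls against 5.15, 6.45 and 3.46 CPM. That call rests on 0%-Axitinib replicate 2, without which the log2 fold change of Krt10 turned from -3.93 to 0.52, and it was also lost when any 3%-Axitinib sample was left out, in the DESeq2 Wald test and with the block. The part of these cell types in the levels of the regulators was not tested.

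Levels of different genes were compared as CPM per kb of exon. In the 0%-Axitinib group the order was Pth1r (15.7 ± 11.9, mean and SD over 3 samples), Sp7 (4.18 ± 4.58), Mef2c (3.24 ± 0.137), Runx2 (2.89 ± 0.633), Runx3 (2.44 ± 1.73), Col10a1 (2.26 ± 2.28), Dlx5 (1.84 ± 1.58), Pthlh (0.699 ± 0.462) and Ihh (0.298 ± 0.0989). In the 3%-Axitinib group it was Pth1r (93.1 ± 93.5), Sp7 (20.9 ± 23.8), Dlx5 (7.33 ± 8.92), Col10a1 (7.17 ± 3.75), Ihh (5.57 ± 4.09), Runx2 (4.95 ± 3.18), Mef2c (3.50 ± 1.65), Runx3 (2.09 ± 0.520) and Pthlh (1.49 ± 0.610). Every gene overlapped in range over the samples with its neighbour in the order, in both groups. Within a sample, Pth1r per kb exceeded Sp7 in all 6 samples, by 3.11 to 8.55 times. Sp7 also exceeded Dlx5 in all 6 samples, by 1.02 to 5.60 times. In the 3 treated samples Runx2 exceeded Mef2c (1.11 to 1.59 times) and Mef2c exceeded Runx3 (1.11 to 2.14 times), while over all 6 samples this held in 4 and 5. For the other neighbours the order differed between samples of a group. Ihh moved from the last place to the middle of the order.

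Genes with the closest pattern over the 6 samples were sought with the same measure as for Dlx6. Among 139 tested genes of the lists, Ihh was closest to Acan (0.591), Ibsp (0.645) and Gli1 (0.659), and Pth1r to Dlx3 (0.352). Runx2 was closest to Ptch1 (0.298), Sp7 to Dlx6 (0.533), Mef2c to its relative Mef2a (0.204), Runx3 to the endothelial gene Emcn and the macrophage gene C1qa (both 0.506), Pthlh to the macrophage gene Cd163 (0.524) and Col10a1 to Gli2 (0.879). Among all 14338 tested genes with a mean of at least 1 CPM, the closest was Gm27252 for Ihh (0.587), Tmie for Pth1r (0.225), Slc13a5 for Sp7 (0.259), Fam216a for Runx2 (0.171), Gldn for Col10a1 (0.401), Crabp2 for Pthlh (0.174), Ppil1 for Runx3 (0.131) and Cpe for Mef2c (0.0954). The SD of log2 CPM over the samples, against which these distances can be set, was 0.399 for Mef2c, 0.634 for Runx3, 0.670 for Runx2, 1.08 for Pthlh, 1.70 for Dlx5, 1.71 for Pth1r, 1.95 for Sp7, 1.99 for Col10a1 and 2.22 for Ihh.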

How the data were processed

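RNA-seq was made from 3 samples of the 0%-Axitinib group and 3 of the 3%-Axitinib group. The authors deposited raw read counts per gene, mapped with STAR 2.5.2b to GRCm38 per the submitters' processing notes. The annotation release and the strand setting are not given in the sources used here. The 4 summary lines that name no gene (unmapped reads 3.84% to 48.4% of a library, multimapping 2.71% to 6.65%, outside genes 3.17% to 6.14%, ambiguous 3.55% to 5.74%) entered neither library sizes nor tests. Genes were filtered with filterByExpr (minimum count 10, minimum total 15), scaled by TMM and tested with the quasi-likelihood test of edgeR 4.0.16 in R 4.3.3 without covariates, with Benjamini-Hochberg adjustment over 15257 genes. Positions and exon lengths came from GENCODE M21. The alternatives were DESeq2 1.42.0, other scalings and filters, a replicate block and leaving out each sample. The members and lists were chosen with earlier results of these data known. Named genes were all 10 members, of each pathway list those meeting the criterion and the most abundant, of each cell type list the most abundant and markers at 0 in a group, and the closest genes in pattern. Krt10, Rgs5 and Kcnj8 were added after their values were seen. Some genes of the lists are counted but not reported here by name.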

Additional observations from a re-analysis of the deposited data

How the results depend on the processing

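Leaving out 1 sample at a time gave log2 fold changes from 3.46 to 4.59 for Ihh, 1.37 to 3.40 for Pth1r, 0.62 to 1.43 for Pthlh, 0.12 to 1.07 for Runx2, 0.82 to 3.73 for Sp7, 0.33 to 2.98 for Dlx5, 1.11 to 2.79 for Col10a1, -0.50 to 0.53 for Runx3 and -0.35 to 0.31 for Mef2c, the last pair turning sign. The regulators meeting the criterion as higher ranged from 1 to 4 and the number past the adjusted p of 0.05 from 0 to 1. Over all genes, the criterion gave 1055 to 2274 higher and 1308 to 2148 lower, and the adjusted p gave 0 to 1252, the last without 0%-Axitinib replicate 3. The DESeq2 Wald test gave 4 regulators as higher (adding Sp7 at 2.32 and Dlx5 at 2.00), 2 with an adjusted p of at most 0.05, and 1960 such genes in all. Without a filter on low counts Sp7 met the criterion (2.31) and 15 genes reached the adjusted p. Scaling to total counts moved the median log2 fold change of all genes from -0.03 to -0.16 and Mef2c to -0.022. The cause of these changes was not tested. A minimum of 10 counts in every sample removed Pthlh. With the replicate number as a block, Col10a1 met the criterion (2.33), 3 regulators were higher and 2 genes reached the adjusted p. Over all genes and whatever the fold change, 2658 had an unadjusted p of at most 0.05 in edgeR with the block, against 3585 without it. With the block, 7 of the 27 list genes that met the criterion no longer did. Among them were Prkar1a (-0.66), Cbfb (-0.76), Spp1 (1.05), Col1a1 (1.57), Ifitm5 and Omd (1.22). Scaling to total counts lost 4 of the 27, among them Spp1 (1.18), Col1a1 (1.63) and Omd, leaving out 1 sample lost 4 to 10 of them, and DESeq2 lost 0. Deviations of same-numbered samples correlated at 0.182, -0.115 and -0.174, within the range of differently numbered samples (-0.221 to 0.212). These values show no pairing by number, but so few samples cannot exclude it. Low counts limit Pthlh, Col9a1 and the control values of Ihh.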
